A study of Mus musculus with 9 samples.

Results

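The genes described here are 38 known mouse imprinted genes, chosen by symbol from the 52264 rows of a table of read counts. All 38 had a row, and 37 of them were among the 15366 genes with enough counts to be tested. The remaining gene, Kcnq1, had 22 counts in all 9 libraries together and was not tested. By textbook assignment 15 of the 38 are expressed from the maternal allele, 22 from the paternal allele, and Gnas from either, depending on the transcript. The counts do not separate the alleles, so every value is the sum of both parental copies.

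The libraries came from mouse embryonic stem cells (ESCs) labelled β-catenin null, 3 libraries in each of 3 groups: control, BRD0705, and CHIR-99021, written CHIR here. BRD0705 is an inhibitor selective for GSK3α, and CHIR inhibits both GSK3α and GSK3β. The series concerns GSK3α in the maintenance of stem cells. Every group carried the same genotype, was grown on feeder-treated dishes, was held overnight in N2B27, a serum-free medium, and was then exposed for 30 min. Expansion of these cells before that step used CHIR, the MEK inhibitor PD03 and LIF, so the control cells had also met CHIR earlier. The labels give no dose for the 30 min exposure, no sign of how many clones were used, and nothing on whether replicates were separate cultures. The p-values therefore measure only the spread between these libraries, which may be technical. The labels name polyA RNA as the molecule but a ribosomal RNA depletion kit in the protocol, and they do not say whether the counting used strand.

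Imprinted genes are expressed mainly from 1 parental chromosome. The choice is set by DNA methylation laid down in the egg or the sperm at control regions, most of which each govern a cluster of neighbouring genes, often through a long noncoding RNA. After fertilisation these marks are kept by ZFP57 and its partner TRIM28 together with the maintenance DNA methyltransferase. Many imprinted genes act on fetal and placental growth, and mouse ESCs are known to lose imprints in culture. β-catenin is the effector that GSK3 marks for degradation in the Wnt pathway.

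Promoter sequences are shown for Phlda2 and for the 4 neighbouring genes Ndn, Magel2, Mkrn3 and Peg12, which lie within 1 short stretch of chromosome 7. Of the 37 tested imprinted genes, Peg12 was the only 1 called lower with CHIR and Phlda2 the only 1 called higher with BRD0705. Both calls were lost in some of the fits with 1 library left out, as given below. Each sequence is 300 bases, from 250 before to 50 after the transcription start, from RefSeq on GRCm38.p6. They are written 5′ to 3′ on the gene's own strand, and the capitals mark CpG dinucleotides, the sites at which imprints are methylated.
Ndn: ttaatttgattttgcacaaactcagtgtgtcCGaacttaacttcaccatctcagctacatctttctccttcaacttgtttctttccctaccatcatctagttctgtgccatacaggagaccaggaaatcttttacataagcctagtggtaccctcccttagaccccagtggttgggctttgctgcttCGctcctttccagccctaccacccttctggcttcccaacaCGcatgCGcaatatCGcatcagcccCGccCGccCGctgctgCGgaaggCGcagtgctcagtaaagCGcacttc
Magel2: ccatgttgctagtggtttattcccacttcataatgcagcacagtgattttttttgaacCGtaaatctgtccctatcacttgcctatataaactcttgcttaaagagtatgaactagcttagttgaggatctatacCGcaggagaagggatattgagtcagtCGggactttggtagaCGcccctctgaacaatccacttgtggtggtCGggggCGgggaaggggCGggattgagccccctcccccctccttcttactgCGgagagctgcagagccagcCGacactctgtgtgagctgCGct
Mkrn3: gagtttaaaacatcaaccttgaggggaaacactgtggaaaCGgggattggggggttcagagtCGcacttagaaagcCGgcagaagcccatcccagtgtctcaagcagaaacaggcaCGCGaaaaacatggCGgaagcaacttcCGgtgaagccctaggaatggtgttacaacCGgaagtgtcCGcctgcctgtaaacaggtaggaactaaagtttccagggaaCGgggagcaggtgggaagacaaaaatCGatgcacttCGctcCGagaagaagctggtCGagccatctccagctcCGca
Peg12: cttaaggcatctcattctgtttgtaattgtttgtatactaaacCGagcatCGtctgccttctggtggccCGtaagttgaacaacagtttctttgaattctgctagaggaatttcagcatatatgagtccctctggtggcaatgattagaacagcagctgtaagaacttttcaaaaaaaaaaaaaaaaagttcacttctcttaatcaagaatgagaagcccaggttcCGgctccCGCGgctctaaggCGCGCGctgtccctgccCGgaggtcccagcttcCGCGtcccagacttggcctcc
Phlda2: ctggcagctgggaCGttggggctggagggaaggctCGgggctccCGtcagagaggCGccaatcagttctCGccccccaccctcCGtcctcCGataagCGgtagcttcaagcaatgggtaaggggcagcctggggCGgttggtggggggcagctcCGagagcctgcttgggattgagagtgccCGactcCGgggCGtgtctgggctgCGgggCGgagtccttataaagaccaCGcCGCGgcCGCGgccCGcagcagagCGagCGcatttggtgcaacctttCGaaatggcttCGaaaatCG
The Ndn promoter lies at chr7:62348027-62348326 on the plus strand and holds 11 CpGs. Magel2 follows at chr7:62376729-62377028, also on the plus strand, with 10 CpGs. Mkrn3 at chr7:62420104-62420403 has 15 CpGs and Peg12 at chr7:62464461-62464760 has 12, both on the minus strand. Phlda2, far from these at chr7:143502475-143502774 on the minus strand, has 26 CpGs, the highest number of the 5. The median over all 32851 RefSeq mouse promoters of this length was 7. Of the 38 genes, 30 had an entry among those promoters, 44 promoters in all. The entries did not include Sgce, Gnasas1, Cdkn1c, Peg13, Kcnq1, Peg10, H19 or Impact.

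The hexamer TGCCGC, the core of the sequence ZFP57 binds when it is methylated, was searched on both strands in those windows. It was found in 11 of the 44 promoters, those of Grb10, Igf2, Meg3, Mest, Nap1l5, Nnat, Plagl1, Snrpn, Zdbf2 and Zim1, and in 11.6% of all promoters. The heptamer ATCAAAG, a core of the TCF/LEF site through which β-catenin acts, was in none of the 44 and in 3.7% of all promoters. Neither motif occurs in the 5 promoters printed above. These matches describe letters in a window and say nothing of binding.

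Library totals were 17359422 to 20773337 counts, and the 38 genes took 0.195 to 0.22% of each. Ctnnb1, the β-catenin gene, was counted at 303 to 371 CPM (counts scaled to a library of 1000000, with TMM factors) in all 9 libraries; the labels do not say which part of it was deleted, so this checks nothing. All 10 pluripotency markers were present, with sums of 4340 to 4400 CPM in control, 4200 to 4380 in BRD0705 and 4430 to 4580 in CHIR. Of the 10, Esrrb and Klf4 rose with CHIR (20% called, against 6.3% of all tested genes). Between the inhibitors 3 (Esrrb, Klf4 and Tdgf1) were lower in BRD0705 than in CHIR (30%, against 7.77%). Markers of primitive endoderm summed to 17.6 to 18 CPM in control, 17.8 to 20.6 in BRD0705 and 14.5 to 16.3 in CHIR, with Ttr at 0 in every library. All 6 tested ones had CHIR values below 0 with 0 called, and Sox7 was 0.68 ± 0.19 higher in BRD0705 than in CHIR (adjusted p = 0.0369). Trophoblast markers summed to 29.2 to 33.1 CPM in control, 27.8 to 30.6 in BRD0705 and 26.1 to 30.4 in CHIR, with Prl3d1 at 0. Neural progenitor markers summed to 127 to 138, 128 to 143 and 122 to 137 CPM in the same order, with Neurog2 at 0. Of these Sox1 fell by 0.76 ± 0.19 with CHIR (adjusted p = 0.0203) and was 0.67 ± 0.19 higher in BRD0705 than in CHIR (0.0383). The 6 tested neural markers had a median CHIR change of -0.05, with 2 above 0 and 4 below. The part of these other markers in the values of the imprinted genes was not tested. Fibroblast markers, which feeder cells express, summed over 16 genes to 3320 to 3840 CPM in control, 4170 to 4260 in BRD0705 and 3660 to 4470 in CHIR, with none at 0. Of these 16 genes, 3 rose with BRD0705 and 4 with CHIR, 18.8% and 25% called, against 1.22% and 6.3% of all tested genes. Fold changes were above 1 for 15 and 16 of them, against 7534 and 7313 of the 15366 tested genes. In such a mixture, fewer cells of a type and less RNA per cell cannot be told apart.

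Per kilobase of the longest annotated transcript, the median level over the 37 tested genes was 2.81 CPM per kb, against 3.88 over all tested genes. On this scale the tetraspanin gene Cd81 was highest at 166, followed by Gnas, which encodes the stimulatory G protein α subunit, at 70.5. Phlda2 stood at 59.1 CPM per kb and Snrpn, a splicing factor gene, at 50.5. Kcnq1ot1 was lowest at 0.0243, a value set in part by its annotated length of 93092 bases, and Zim1 came close at 0.0569. The counts behind the genes ranged accordingly: 6 genes were above 100 CPM, 14 between 10 and 100, 14 between 1 and 10, and 4 (Airn, Nap1l5, Zim1 and Kcnq1) under 1 CPM. The fitted spread between replicates beyond counting noise was 4.45 to 30.1% of the level, with a median of 6.62% over all tested genes. It was widest for Airn. The observed spread at low counts was larger, with Airn at 0.584 ± 0.415 CPM in BRD0705 (SD, n = 3).

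**Figure D1:**
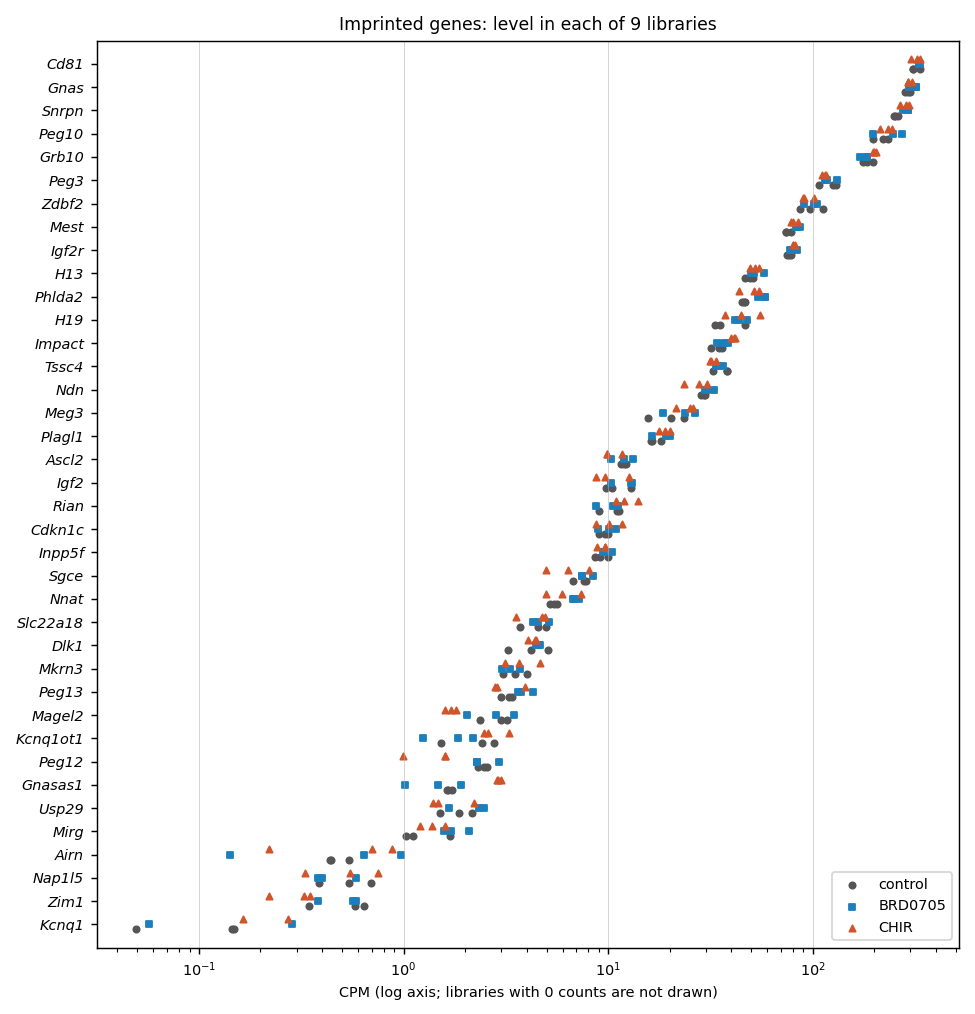
Level of each of the 38 imprinted genes (rows, ordered by mean) in CPM on a log axis; each point is 1 library, with grey circles for control, blue squares for BRD0705 and orange triangles for CHIR. The 3 groups lie on top of each other for most genes, while the CHIR triangles stand apart for Gnasas1 (2.86 to 2.99 CPM) and Peg12 (0.997 to 1.60 CPM).

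Changes after 30 min were few. The test was edgeR's quasi-likelihood test over all 15366 genes, with Benjamini-Hochberg adjustment at 0.05, and the fold changes below are its log2 values ± SE. With BRD0705, 1 of the 37 tested genes rose (Phlda2) and 0 fell, against 1.22% of all tested genes called, 0.69% higher and 0.534% lower. Only 4 of the 37 had an unadjusted p under 0.05, which is 10.8% against 15.9% of all genes. For lower calls limma voom also gave 0 of the 37, and DESeq2, whose own filter left an adjusted p for 17 of the genes, 0 of those 17. With CHIR, 2 of the 37 rose (Gnasas1 and Impact) and 1 fell (Peg12), against 6.3% of all genes called, 2.52% higher and 3.78% lower. For this comparison 8 of the 37 had an unadjusted p under 0.05, 21.6% against 20.5% of all genes. Directly between the inhibitors, Peg12 was higher and Gnasas1 lower in BRD0705 than in CHIR, 2 of the 37, against 7.77% of all genes, 4.8% higher and 2.97% lower. The shares called, 2.7%, 8.11% and 5.41% of the 37, lie near the background and rest on 1 to 3 genes each. Scaled by library size only, all called genes split into 252 higher and 702 lower with CHIR, in place of 387 and 581, and into 912 and 239 between the inhibitors, in place of 738 and 456.

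The median log2 fold change over the 37 genes was 0.08 with BRD0705, 0.07 with CHIR and 0.06 between the inhibitors, where all tested genes had medians of 0, -0.01 and 0. With BRD0705, 26 of the 37 lay above 0, against 7534 of all 15366 tested genes. Between the inhibitors the count was 24, against 7813. It was also 24 with CHIR, against 7313, and both comparisons with control use the same control libraries. With the mean level of the 16 fibroblast markers as a covariate, the medians over the 37 were 0.022 and -0.039. That mean log2 level was 6.14 to 6.29 in control, 6.4 to 6.44 in BRD0705, and 6.48, 6.5 and 6.2 in CHIR. The covariate thus largely followed the treatment, so a call against control lost with it cannot separate treatment from fibroblast content. With the trend of GC content and transcript length removed in each library, the medians over the 37 were 0.055 with BRD0705 and 0.039 with CHIR. The part of GC content and length in these medians was not tested. The size of the changes, as a median absolute value, was 0.10, 0.12 and 0.15, against 0.10, 0.11 and 0.12 over all genes. Groups did not overlap in CPM for 5 of the 37 with BRD0705 (13.5%, background 20.2%), 6 with CHIR (16.2%, background 25.1%) and 7 between the inhibitors (18.9%, background 26.7%). By parental allele, medians were 0.07 for 14 tested maternally expressed genes and 0.09 for 22 paternally expressed ones with BRD0705, and 0.09 and 0.03 with CHIR. The 3 genes called with CHIR were all paternally expressed, as are 22 of the 37 tested genes, and the 1 called with BRD0705 was maternally expressed. These calls are too few to compare the alleles.

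**Figure D2:**
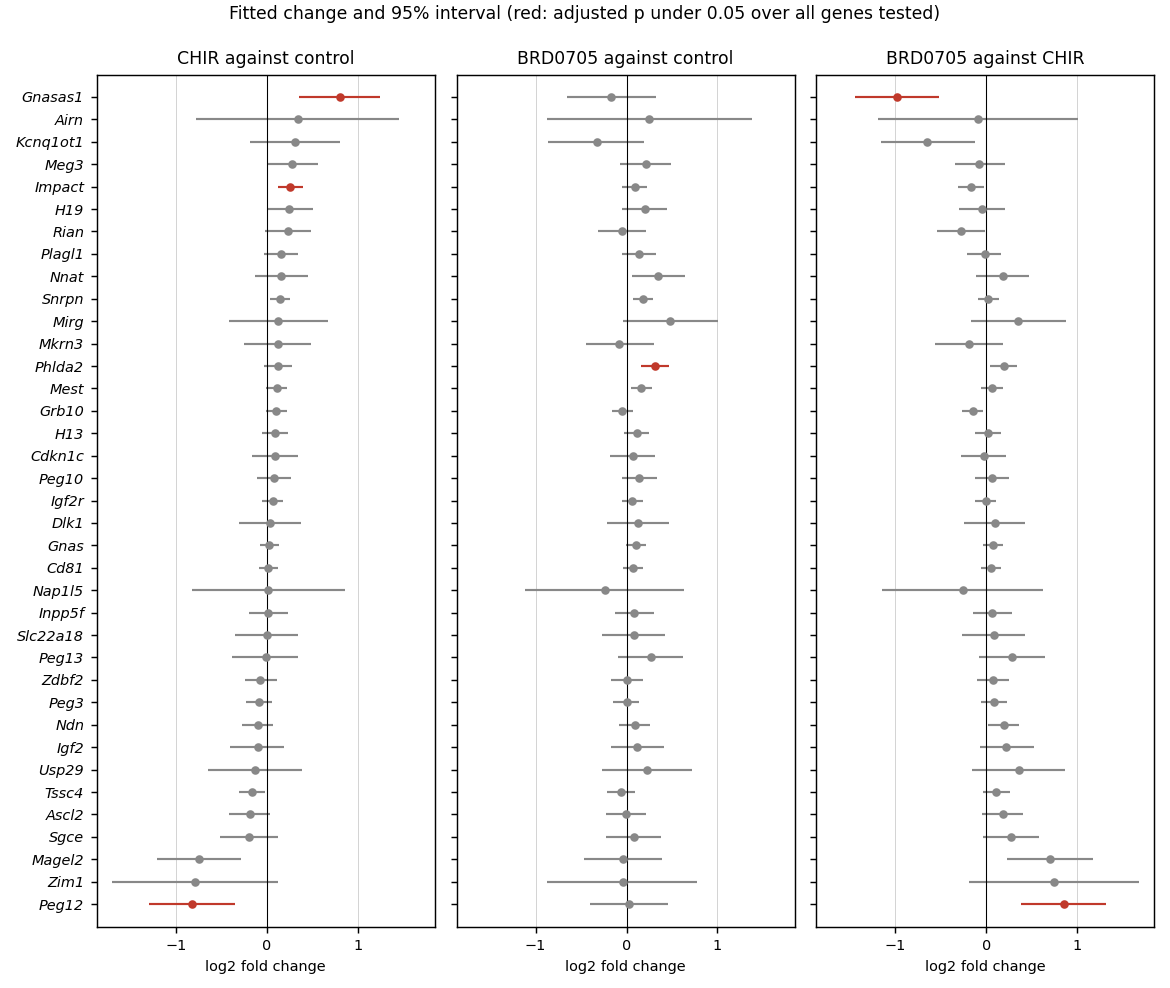
Fitted log2 fold change (point) and its 95% interval (line) for the 37 tested imprinted genes in 3 comparisons, ordered by the change with CHIR; red marks an adjusted p under 0.05. Most intervals cross 0, and Gnasas1 (0.81) and Peg12 (-0.82) are the called genes at either end of the CHIR panel.

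The 4 genes next to each other on chromosome 7, whose promoters are printed above, belong to the Snrpn and Magel2 domain, the mouse counterpart of the Prader-Willi region, expressed from the paternal allele. Peg12, also called Frat3, is of the FRAT family, known for binding GSK3. It stood at 2.32, 2.47 and 2.56 CPM in the 3 control libraries, 2.94, 2.28 and 2.28 in BRD0705, and 0.997, 1.60 and 1.59 in CHIR. All 3 CHIR libraries were below every other library. Peg12 fell by 0.82 ± 0.22 with CHIR (adjusted p = 0.0349, 0.566-fold), changed by 0.03 ± 0.20 with BRD0705 at an adjusted p of 0.969, and was 0.85 ± 0.23 higher in BRD0705 than in CHIR (adjusted p = 0.0275). It had only 20 to 55 counts per library. The CHIR call was lost without control replicate 1 (adjusted p = 0.0634), 2 (0.101) or 3 (0.112), and without CHIR replicate 1 (0.141, log2 change -0.61) or 2 (0.0593). It was also lost with DESeq2 (0.0912) and with the fibroblast covariate (-0.68 ± 0.30, 0.312), which itself differed between the groups. The difference between the inhibitors was lost without BRD0705 replicate 1 (0.134), without CHIR replicate 1 (0.119) and with DESeq2 (0.0664), and it held with the fibroblast covariate (0.88, 0.0294).

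Magel2, a MAGE family gene active in the hypothalamus, had CHIR values in the same direction, at the edge of the threshold. Its levels were 2.37, 3.20 and 3.01 CPM in control, 3.48, 2.84 and 2.04 in BRD0705, and 1.60, 1.71 and 1.80 in CHIR. Every CHIR library again lay below all others. The difference was -0.75 ± 0.22 with CHIR (adjusted p = 0.0512; 0.0307 to 0.18 with 1 library left out) and 0.70 ± 0.22 for BRD0705 against CHIR (adjusted p = 0.0625). It passed for CHIR in 5 of the 12 alternatives other than leaving out a library, with library size only (0.043), the 2 groups compared alone (0.0416), a mean CPM minimum of 1 (0.0484), no filter on low counts (0.0189) and the GC and length trend removed (0.0457), and also without control replicate 1 (0.0458), BRD0705 replicate 1 (0.047) or BRD0705 replicate 3 (0.0307), and between the inhibitors without BRD0705 replicate 3 (0.90, 0.023). The neural marker Sox1 fell with CHIR as well, but the 6 tested neural markers had a median of -0.05, with 2 above 0 and 4 below. The part of these markers in the values of Peg12 and Magel2 was not tested. Ndn, which encodes necdin, a further MAGE protein, was at 28.4, 29.4 and 29.9 CPM in control, 29.8, 30.4 and 33.0 in BRD0705, and 27.9, 30.4 and 23.6 in CHIR. Its groups overlapped, with -0.10 ± 0.08 for CHIR and 0.19 ± 0.08 between the inhibitors (adjusted p = 0.17). Mkrn3, a ring finger gene between Magel2 and Peg12, averaged 3.53 ± 0.482 CPM in control, 3.34 ± 0.338 in BRD0705 and 3.81 ± 0.76 in CHIR (SD, n = 3 each), a CHIR difference of 0.12 ± 0.18.

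Snrpn, at the far end of this domain, encodes SmN, a protein of the spliceosome. It was counted at 261, 252 and 249 CPM in control, 293, 275 and 293 in BRD0705, and 267, 284 and 295 in CHIR. Both inhibitor groups lay wholly above the control group. The differences were 0.18 ± 0.05 with BRD0705 (adjusted p = 0.104) and 0.15 ± 0.05 with CHIR (0.0995), neither past the threshold, and DESeq2 gave 0.0193 and 0.0361. Snrpn shares exons with Snurf on the same strand, so the division of reads between them is uncertain.

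**Figure D3:**
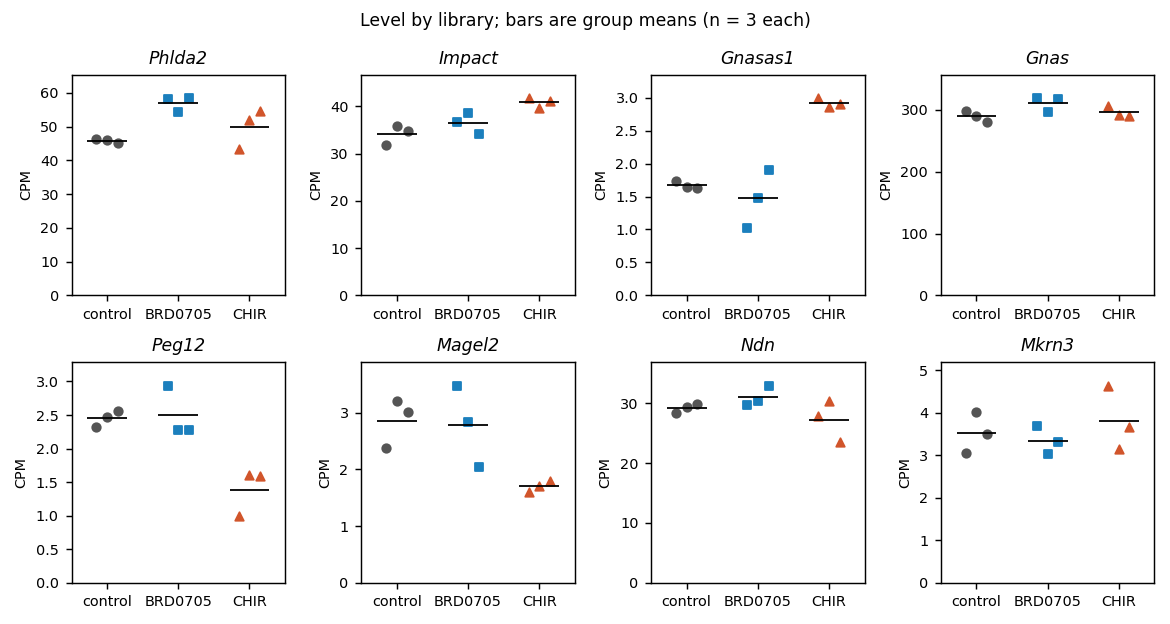
Level in CPM by library (points) with group means (bars, n = 3 libraries each) for the 4 called genes, Phlda2, Impact, Gnasas1 and Peg12, and for their neighbours Gnas, Magel2, Ndn and Mkrn3; each axis starts at 0. The 3 CHIR points lie below all others for Peg12 and Magel2 and above all others for Gnasas1 and Impact, while those of Gnas and Mkrn3 overlap the control points.

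In the Gnas domain on chromosome 2, Gnasas1 is a noncoding RNA transcribed antisense to Gnas from the paternal allele, at 174281237 to 174295436 on GRCm38.p6. Its levels were 1.73, 1.65 and 1.63 CPM in control, 1.02, 1.48 and 1.90 in BRD0705, and 2.99, 2.86 and 2.90 in CHIR. The CHIR libraries were close together and above all 6 others, while the BRD0705 libraries spread around the control values. Gnasas1 rose by 0.81 ± 0.21 with CHIR (1.75-fold, adjusted p = 0.0286) and was 0.98 ± 0.22 lower in BRD0705 than in CHIR, a log2 difference of -0.98 (0.507-fold, adjusted p = 0.0098). With BRD0705 the value was -0.17 ± 0.23. It had 19 to 60 counts per library. The call with CHIR was lost without control replicate 1 (adjusted p = 0.0619), 2 (0.0896) or 3 (0.09), or without CHIR replicate 1 (0.0665), 2 (0.0734) or 3 (0.0603). The log2 value was 0.80 to 0.84 in the 9 fits with 1 library left out. The call was also lost with DESeq2 (0.0703) and with the fibroblast covariate (0.79 ± 0.29, 0.204). The difference between the inhibitors passed in all 12 alternatives other than leaving out a library (adjusted p = 0.00113 to 0.0208), and was lost without BRD0705 replicate 1 (-0.78, 0.0563).

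Gnasas1 overlaps exons of Gnas on the opposite strand and holds Mir296 on its own. Without strand, reads from Gnas and Gnasas1 cannot be told apart where they overlap. Gnas itself was at 298, 291 and 281 CPM in control, 319, 296 and 318 in BRD0705, and 307, 292 and 291 in CHIR. These groups overlapped, with differences of 0.10 ± 0.05 for BRD0705 (adjusted p = 0.345) and 0.03 ± 0.05 for CHIR (0.789).

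On distal chromosome 7 lie 10 of the 38 genes, in the H19 and Igf2 domain and the Kcnq1ot1 domain. Phlda2, a maternally expressed pleckstrin homology gene that limits placental growth, was counted at 46.4, 45.9 and 45.2 CPM in control, 58.3, 54.3 and 58.4 in BRD0705, and 43.5, 51.8 and 54.7 in CHIR. Every BRD0705 library was above every control library, and the CHIR libraries lay across the control range. Phlda2 rose by 0.31 ± 0.07 with BRD0705 (1.24-fold, 95% interval 0.16 to 0.47, adjusted p = 0.0418). With CHIR the value was 0.12 ± 0.07 (adjusted p = 0.373), and the difference between the inhibitors, 0.19 ± 0.07, did not pass (0.118). The call was lost without control replicate 1 (0.0542), 2 (0.136) or 3 (0.145), BRD0705 replicate 1 (0.203), 2 (0.0725) or 3 (0.0639), or CHIR replicate 2 (0.0671). The log2 value was 0.30 to 0.35 in the 9 fits with 1 library left out, of which 2 kept the call. It passed in 11 of the 12 alternatives other than leaving out a library. With the fibroblast covariate, under which 0 of all 15366 genes passed for BRD0705, the value was 0.42 ± 0.10 at an adjusted p of 0.203.

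H19, a maternally expressed noncoding RNA and the host of Mir675, was at 46.5, 35.4 and 33.4 CPM in control, 43.5, 47.6 and 41.6 in BRD0705, and 44.8, 55.2 and 37.4 in CHIR. Control replicate 1 lay within the range of the treated libraries, and the groups overlapped. The differences were 0.20 ± 0.12 with BRD0705 (adjusted p = 0.442) and 0.25 ± 0.12 with CHIR (0.241), and the CHIR value passed only without control replicate 1 (0.42, 0.0458) among the fits with 1 library left out. The summed fibroblast markers in the same libraries were 3840, 3320 and 3360 CPM in control. They were 4260, 4240 and 4170 in BRD0705, and 4190, 4470 and 3660 in CHIR. Control replicate 1 was the highest of its group in both measures and CHIR replicate 3 the lowest of its group. Control replicate 3 had the lowest H19 of its group but not the lowest sum. BRD0705 replicate 1 had the highest sum of its group but not the highest H19. The part of fibroblasts in the H19 values was not tested. With the fibroblast covariate the H19 values were -0.16 ± 0.13 and -0.07 ± 0.12. Igf2, the paternally expressed fetal growth factor beside H19, averaged 11.1 ± 1.68 CPM in control, 12.1 ± 1.58 in BRD0705 and 10.3 ± 2.04 in CHIR (SD, n = 3 each), and its control replicate 1 was likewise the highest control library at 13 CPM.

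**Figure D4:**
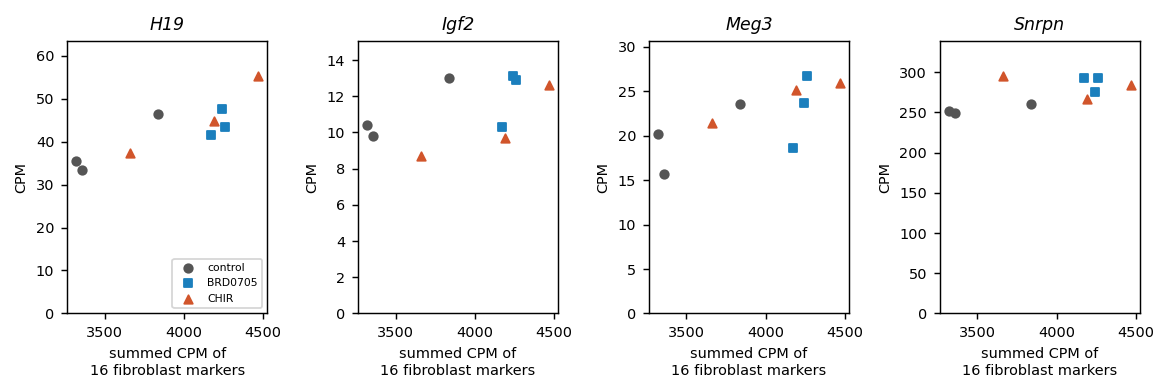
Level of H19, Igf2, Meg3 and Snrpn in CPM (vertical, from 0) against the summed CPM of 16 fibroblast markers (horizontal, axis not from 0), 1 point per library. The control library with the highest fibroblast sum (3840 CPM) has the highest H19 (46.5 CPM) and Igf2 (13 CPM) of the control group, and the CHIR library with the lowest sum (3660 CPM) has the lowest H19 (37.4 CPM) of its group. The BRD0705 library with the highest sum (4260 CPM) does not have the highest H19 of its group (43.5 against 47.6 CPM).

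Kcnq1ot1, the paternally expressed noncoding RNA that silences its neighbours, was at 1.53, 2.42 and 2.76 CPM in control, 2.19, 1.25 and 1.85 in BRD0705, and 2.59, 2.48 and 3.28 in CHIR. The inhibitor groups did not overlap each other but both overlapped control, and the difference between them, -0.65 ± 0.25, did not pass (adjusted p = 0.123). It runs antisense through Kcnq1, a potassium channel gene, which stayed between 0 and 0.285 CPM. Tssc4 was at 38.3, 32.5 and 37.9 CPM in control, 36.4, 33.7 and 34.3 in BRD0705, and 33.8, 31.7 and 31.5 in CHIR, a CHIR difference of -0.16 ± 0.07 (adjusted p = 0.193). Cd81 was at 334, 308 and 309 CPM in control, 333, 330 and 332 in BRD0705, and 335, 324 and 302 in CHIR, with differences of at most 0.07 and overlapping groups. The rest of this region had group means close to each other: 9.55 to 10.2 CPM for Cdkn1c, a cell cycle inhibitor gene, 4.40 to 4.65 for the transporter gene Slc22a18, and 10.5 to 11.9 for Ascl2, a trophoblast transcription factor gene. None of these passed.

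Impact, a paternally expressed gene whose protein restrains the stress kinase GCN2, was at 31.8, 35.9 and 34.8 CPM in control, 36.7, 38.5 and 34.1 in BRD0705, and 41.7, 39.7 and 41.2 in CHIR. The CHIR libraries lay above all 6 others. Impact rose by 0.26 ± 0.07 with CHIR (1.19-fold, 95% interval 0.12 to 0.40, adjusted p = 0.0262), had 0.09 ± 0.07 with BRD0705 (0.563), and the difference between the inhibitors, -0.17 ± 0.07, did not pass (0.138). The CHIR call was lost without control replicate 1 (0.0888) or 3 (0.0591), without CHIR replicate 1 (0.0732), 2 (0.0533) or 3 (0.0609), with scaling by library size only (0.0571) and with the fibroblast covariate (0.31 ± 0.09, 0.102).

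In the Dlk1 and Meg3 domain on chromosome 12, the maternally expressed noncoding RNA Meg3 was at 23.6, 20.2 and 15.7 CPM in control, 26.7, 23.7 and 18.6 in BRD0705, and 25.2, 25.9 and 21.4 in CHIR. The lowest library of each group was its replicate 3, and the groups overlapped. With CHIR the difference was 0.28 ± 0.13 (adjusted p = 0.228), and 0.0371 with the replicate number as a block. Rian, transcribed downstream of Meg3 and a host of snoRNAs, was at 11.3, 11 and 9.02 CPM in control, 11.2, 10.6 and 8.69 in BRD0705, and 11.9, 14 and 10.9 in CHIR, and the inhibitors differed by -0.28 ± 0.12 (adjusted p = 0.183). Mirg, a host of miRNAs, averaged 1.27 ± 0.35 CPM in control, 1.79 ± 0.269 in BRD0705 and 1.39 ± 0.197 in CHIR (SD, n = 3 each). Dlk1, the paternally expressed ligand-like gene of the domain, had means of 4.17, 4.56 and 4.29 CPM in the same order. All 4 genes had CHIR values above 0, from 0.04 to 0.28, and none passed.

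Genes for regulators of growth signalling showed small differences. Igf2r, the maternally expressed receptor that clears IGF2, was at 76.9, 75.0 and 78.5 CPM in control, 79.2, 84.1 and 77.7 in BRD0705, and 79.7, 81.6 and 80.3 in CHIR. The CHIR libraries lay above control, by 0.07 ± 0.05 (adjusted p = 0.538). Airn, the antisense RNA that silences Igf2r, had 3 to 17 counts per library and means of 0.474 to 0.599 CPM. Grb10, an adaptor gene that limits insulin signalling, was at 176, 196 and 185 CPM in control, 184, 184 and 170 in BRD0705, and 196, 203 and 200 in CHIR. The inhibitor groups did not overlap, and their difference of -0.15 ± 0.05 did not pass (adjusted p = 0.0994). Plagl1, a zinc finger transcription factor gene, was at 16.4, 18.1 and 16.2 CPM in control, 20.1, 16.3 and 19.2 in BRD0705, and 17.8, 18.9 and 20 in CHIR, with overlapping groups.

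Of the paternally expressed genes at single sites, Mest, which encodes a hydrolase-like protein, was at 73.9, 78.4 and 73.6 CPM in control, 83.7, 87.0 and 82.6 in BRD0705, and 85.0, 78.0 and 80.1 in CHIR. The BRD0705 libraries were all above control, by 0.16 ± 0.06 (adjusted p = 0.156). Nnat, a proteolipid gene of developing neurons, was at 5.62, 5.42 and 5.22 CPM in control, 6.79, 7.17 and 6.74 in BRD0705, and 5.93, 4.96 and 7.33 in CHIR. Here too the BRD0705 libraries lay above control, by 0.35 ± 0.14 (adjusted p = 0.227), while the CHIR libraries spread on both sides. Peg13, a noncoding RNA within Trappc9, was at 3.40, 3.29 and 3.01 CPM in control, 4.28, 3.64 and 3.75 in BRD0705, and 3.94, 2.86 and 2.79 in CHIR, with BRD0705 above control in every library and a difference of 0.27 ± 0.17 (adjusted p = 0.473). Mest overlaps Copg2 and Nnat overlaps Blcap on the opposite strand, and Peg13 overlaps Trappc9 on the same strand, so reads there may belong to either gene.

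Peg3, a zinc finger gene on proximal chromosome 7, was at 107, 130 and 126 CPM in control, 115, 131 and 117 in BRD0705, and 116, 115 and 111 in CHIR, with overlapping groups and a CHIR difference of -0.09 ± 0.07. Its neighbours Usp29, a ubiquitin protease gene with group means of 1.69 to 2.15 CPM, and Zim1, a maternally expressed zinc finger gene, had CHIR differences of -0.13 ± 0.25 and -0.79 ± 0.44. Zim1 had 4 to 13 counts per library. Its CHIR mean was 0.299 ± 0.0691 CPM against 0.522 ± 0.156 in control and 0.512 ± 0.115 in BRD0705 (SD, n = 3 each), the inhibitor groups did not overlap, and neither comparison with CHIR passed (adjusted p = 0.332 and 0.341).

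Peg10, a gene derived from a retrotransposon and needed for the placenta, was at 221, 232 and 198 CPM in control, 246, 274 and 196 in BRD0705, and 212, 245 and 232 in CHIR. The BRD0705 libraries alone spanned the whole range. Sgce, which shares its promoter region and encodes ε-sarcoglycan, had means of 7.38, 7.79 and 6.47 CPM in control, BRD0705 and CHIR. Zdbf2 was at 86.2, 112 and 96.7 CPM in control, 101, 105 and 90.3 in BRD0705, and 101, 90.6 and 89.5 in CHIR, all overlapping.

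H13, the gene of signal peptide peptidase, was at 50.9, 49.2 and 46.9 CPM in control, 51.4, 57.6 and 49.7 in BRD0705, and 52.3, 54.7 and 49.5 in CHIR. Inpp5f, an inositol phosphatase gene, was at 9.17, 9.98 and 8.62 CPM in control, 9.47, 9.56 and 10.4 in BRD0705, and 9.67, 9.69 and 8.80 in CHIR. Nap1l5, of the nucleosome assembly protein family, was at 0.69, 0.387 and 0.542 CPM in control, 0.588, 0.398 and 0.38 in BRD0705, and 0.748, 0.33 and 0.547 in CHIR, from 6 to 15 counts per library. The groups of all 3 genes overlapped in each comparison with control.

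Other imprinted genes came from a list of 54, of which 41 were tested. In the main edgeR fit 0 of the 41 were called against control with either inhibitor. An unadjusted p under 0.05 was found for 6 (BRD0705, 14.6% against 15.9% of all genes) and 8 (CHIR, 19.5% against 20.5%). DESeq2 called 1 of 23 and 1 of 36 with an adjusted p, and limma voom 0 of 41 in each. With the replicate number as a block, edgeR called 1 of the 41 higher in each comparison with control. Tnfrsf23 had the lowest adjusted p of the list in both comparisons with control in the main fit. Its values were 0.37 ± 0.10 with BRD0705 (0.0661) and 0.31 ± 0.10 with CHIR (0.0617). Between the inhibitors 3 of the 41 passed, 7.32% against 7.77% of all genes. Tnfrsf22, a receptor gene of the Kcnq1ot1 region, was 0.40 ± 0.08 higher in BRD0705 than in CHIR (29.4 ± 2.73 against 22.3 ± 0.567 CPM, SD, n = 3 each, adjusted p = 0.00373), and it passed with each library left out in turn. Snhg14, the long paternal RNA that runs from the Snrpn region, was lower by the same comparison, at 10.9 ± 1.33 against 16.2 ± 0.921 CPM, a log2 difference of -0.57 ± 0.14 (adjusted p = 0.0155). Its call was lost without BRD0705 replicate 1 or 3 or without CHIR replicate 1 or 2 (adjusted p up to 0.0728). Dio3, a thyroid hormone deiodinase gene of the Dlk1 domain, was 1.04 ± 0.31 higher (1.65 ± 0.218 against 0.792 ± 0.21 CPM, adjusted p = 0.0445), and passed in 2 of the 9 fits with 1 library left out, those without control replicate 1 or 2 (up to 0.162 in the others). It was also lost with the fibroblast covariate (0.0602), the GC and length trend removed (0.0554) and that with the replicate block (0.0682), and DESeq2 gave it no adjusted p.

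A further list held 24 genes for DNA methylation and for proteins tied to imprints, such as ZFP57 and TRIM28. It was not limited to maintenance, and included de novo methyltransferases and the Tet genes. Of the 24, 0 passed with BRD0705 by edgeR or limma voom, and 0 of the 21 with an adjusted p by DESeq2. An unadjusted p under 0.05 was found for 4 of them by edgeR, 16.7% against 15.9% of all genes. With CHIR, 2 of the 24 fell and 0 rose, 8.33% called against 6.3% of all genes. Dnmt3a, a de novo DNA methyltransferase gene, was at 81.7 ± 4.01 CPM in control, 77.9 ± 2.84 in BRD0705 and 70.1 ± 2.49 in CHIR (SD, n = 3 each), and fell by 0.22 ± 0.06 with CHIR (adjusted p = 0.0286). The call was lost without control replicate 2 or 3 or without any 1 of the CHIR libraries (up to 0.14). Arid4b, a chromatin gene tied to the Snrpn imprint, was at 37.4 ± 3.40, 36.0 ± 1.69 and 30.5 ± 0.642 CPM, and fell by 0.29 ± 0.07 with CHIR (0.0176). That call was lost without control replicate 3 or CHIR replicate 1 or 2 (up to 0.126). Arid4b was also 0.24 ± 0.07 higher in BRD0705 than in CHIR (0.0495), which passed in 3 of 9 fits with 1 library left out, those without control replicate 1 or 3 or BRD0705 replicate 3 (up to 0.189 in the others) and in 6 of the 12 other alternatives. It was lost with DESeq2 (0.0914), limma voom (0.0537), DESeq2-type size factors (0.0547), the deposited normalized values (0.0587), the fibroblast covariate (0.0518) and the replicate block (0.0576). With the fibroblast covariate neither CHIR change passed (-0.18 ± 0.08, 0.304 for Dnmt3a and -0.25 ± 0.10, 0.25 for Arid4b).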

How the data were processed

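Per the labels, RNA was sequenced in 9 libraries of mouse ESCs, 3 per group. The authors deposited whole-number counts per gene symbol; per the submitters' processing notes the tools were RSEM and DESeq2 and the build mm10, so these may be rounded estimated counts. The aligner, annotation and use of strand are not given in the sources used here. The deposited normalized signal is the count divided by 1 factor per library, and these factors matched DESeq2 size factors to within 2.19e-11.

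The test was edgeR 4.0.16 (R 4.3.3) on the counts, with TMM scaling and the filterByExpr filter (minimum count 10); a single quasi-likelihood fit of the 3 group means took all 9 libraries, and F tests were 2-sided. Genes were called at a Benjamini-Hochberg adjusted p under 0.05 over the 15366 tested genes, and every adjusted p in the text is of this kind unless another tool is named. The imprinted genes, the other lists and the tests were chosen with earlier results of these data known. All members are named; values in every library are given for those called or with an unadjusted p under 0.05 in any comparison and for the gene with the most counts in each domain. In the other lists, called genes are named. The scripts were tested on simulated data. Positions and promoters are RefSeq on GRCm38.p6; transcript length, GC content and exon overlaps were matched by symbol to GENCODE vM39, which may differ from the authors' annotation.

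Alternatives were a replicate block; DESeq2 1.42.0; limma voom (limma 3.58.1); scaling by DESeq2-type size factors or by library totals alone; dropping the count filter or replacing it by a mean of 1 CPM; fitting only the groups compared; limma on the deposited normalized values as log2(value + 1); the mean log2 CPM of 16 fibroblast markers as a covariate; and leaving out each library in turn. A spline correction (5 degrees of freedom each) for GC content and transcript length within each library, alone and with the replicate block, was chosen after seeing the data.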

Additional observations from a re-analysis of the deposited data

How the results depend on the processing

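The imprinted genes called against control in the main fit kept their direction under every alternative run. H19 did not keep its own. With CHIR it was called with no low-count filter (0.26, adjusted p = 0.00946) and without control replicate 1 (0.42, 0.0458), and had -0.07 ± 0.12 with the fibroblast covariate. For BRD0705 against control, genes called numbered 474 with DESeq2 (8035 genes and 17 imprinted genes with an adjusted p, against 15366 and 37), 609 with no low-count filter, 0 with the fibroblast covariate, 114 with the GC and length trend removed and 110 with that and the replicate block, against 188; imprinted genes called were 2 with DESeq2 and 0 with the covariate (3 at an unadjusted p under 0.05), against 1. For CHIR against control the covariate gave 199 genes against 968, and imprinted genes called were 6 with no low-count filter, adding H19, Meg3 and Magel2, and 0 with the covariate (9 at an unadjusted p under 0.05), against 3. Between the inhibitors DESeq2 called 1 imprinted gene of 34 with an adjusted p, Gnasas1, against 2 of 37. Leaving out 1 library gave 21 to 305, 514 to 1070 and 616 to 1313 genes for BRD0705, CHIR and BRD0705 against CHIR, and 0 to 1, 0 to 4 and 0 to 3 imprinted genes. The largest losses were without BRD0705 replicate 1 for BRD0705 (21) and between the inhibitors (616), and without CHIR replicate 2 for CHIR (514). These fits have fewer libraries. The cause of the other differences was not tested.

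The split of all called genes, 40% higher with CHIR and 61.8% higher in BRD0705 than in CHIR, was 26.4% and 79.2% with library size only, and DESeq2 gave 54.1% higher with CHIR (863 called of 12961 genes with an adjusted p); the median of all tested genes stayed between -0.035 and 0.035 in every setting run. With the GC and length trend removed, Magel2 passed with CHIR (adjusted p = 0.0457) and Grb10 between the inhibitors (0.0457), and with the replicate block added Peg12 between the inhibitors was lost (0.0593). Same-numbered libraries did not deviate together (mean correlation -0.00119 over 9 pairs, 0.000622 over 18 others), so the labels' numbers were not taken as pairs. With the replicate block 222, 973 and 1177 genes and 1, 4 and 2 imprinted genes were called in the 3 comparisons, the 1 added being Meg3 with CHIR. Depth limits Airn, Nap1l5 and Zim1, whose lowest libraries had 3, 6 and 4 counts, and Kcnq1, which had 0 in its lowest.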
